A study of Mus musculus with 14 samples.

Results

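Chromatin accessibility was followed at the genes of 5 endoderm transcription factors, Foxa1, Foxa2, Foxa3, Hnf4a and Hnf4g. Accessible regions were built by merging the peaks of 14 ATAC-seq peak lists that overlapped by at least 1 bp, which gave 124598 regions. Of these, 84402 had the start of a protein-coding gene (GENCODE M21, build GRCm38) within 50 kb of their midpoint. A region was assigned to the gene with the nearest start, and 42 regions were nearest to a Foxa or Hnf4 gene. Foxa2 had 18 of them, Hnf4a 13, Foxa1 7, Foxa3 3 and Hnf4g 1. Assignment by distance does not show which gene a region acts on. Regions are named below by the distance of their midpoint from the gene start, with positive values downstream in the sense of the gene.

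KH2 cells, a line of mouse embryonic stem (ES) cells labelled as strain C57BL/6, were used, which carry a doxycycline (Dox)-responsive GATA6 transgene coupled to the fluorescent reporter DsRed2. GATA6 expression drives ES cells towards primitive endoderm (PrE), the extraembryonic layer of the blastocyst. There were 2 libraries of 50000 cells at each of 0, 2, 4, 8, 16, 24 and 48 h. Cells of every group carried the transgene and were grown with LIF. At 0 h they were in 2i medium, a serum-free medium with inhibitors, and had received no Dox, whereas all later cells were in serum medium with Dox at 1 µg/mL. Dox was present throughout up to 8 h, and the cells of 16, 24 and 48 h had it for 12 h followed by serum medium without it. Effects of induction and of the medium change therefore cannot be told apart in a comparison with 0 h, while 48 h against 2 h compares cells that were both in serum. Those cells still differed in time since leaving 2i medium, in time with Dox and in its removal, which cannot be told apart either. All libraries come from 1 line of unsorted cells, so more cells with an open region and a more open region per cell cannot be told apart. The labels do not say whether the 2 libraries of a time point came from separate cultures.

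FOXA proteins are forkhead transcription factors that can bind their sites on nucleosomal DNA and are best known from definitive endoderm and liver. HNF4A and HNF4G are nuclear receptors of the NR2A group, and HNF4A is needed in visceral endoderm, which forms from PrE, as well as in liver and gut. Hnf4a is transcribed from 2 promoters far apart, an upstream promoter called P2 and a downstream promoter called P1 that is used in adult liver. GATA factors, forkhead factors and HNF4 form part of a network of mutual regulation in endoderm.

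The lists held 55588 to 65073 peaks per library, and the library numbered 2 had more peaks than its partner at 7 of 7 time points. Over the members, 31 of 139 region and time point pairs with any call were called in only 1 of the 2 libraries (22.3%, against 25.4% over all regions). Of 8 ES cell markers, 5 had a region within 1 kb of their start called in both libraries at 0 h (Sox2, Nanog, Zfp42, Utf1 and Tfcp2l1) and 5 at 48 h (without Nanog and with Pou5f1). Nanog came and went, with such a region at 0, 4 and 16 h and not at 2, 8, 24 or 48 h, and Pou5f1 had one from 8 h on. Of 6 fibroblast markers, 1 (Thy1) had such a region from 0 to 16 h and none at 24 and 48 h. Trophectoderm markers had 2 of 6 at 0 h and 3 of 6 at 48 h, and mesoderm markers 3 of 4 and 1 of 4. An open start does not show that a gene was expressed, and the part of other cell types in the results below was not tested.

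Sequences of 8 of the 15 regions gained by 48 h and of 1 region that closed again are shown first. They were chosen, after their values were seen, to cover the times of opening, and include more windows with a motif word than the gained regions do: 6 of the 15 hold no word in their window, among them both Hnf4a promoters, the Foxa2 start and Hnf4a +25.3 kb. Each window is the central 200 bp of a region, read on the plus strand of GRCm38. Capitals mark matches, on either strand, to the motif words searched: AGATAA or AGATAG or TGATAA or TGATAG for GATA factors, TGTTTAC or TGTTTGC or TATTTAC or TATTTGC for forkhead factors, TTAATNATT for HNF1 and ACAATGG or ACAATAG for SOX factors. CAAAGTCCA and CAAAGGTCA were sought for HNF4 and match none of these windows, and TGACTCA or TGAGTCA for AP-1 matches 1, Foxa2 +41.9 kb. The first 2 windows opened at 2 h, the next 3 at 4 h, the window after them at 8 h, and the last at 16 h (lasting to 48 h), at 16 h (closed again by 48 h) and at 48 h. Hnf4a +19.4 kb has no capitals because it holds no word. They show which words lie where the chromatin opened; a match is not a bound site.
Foxa2 -19.0 kb, chr2:148065839-148066038: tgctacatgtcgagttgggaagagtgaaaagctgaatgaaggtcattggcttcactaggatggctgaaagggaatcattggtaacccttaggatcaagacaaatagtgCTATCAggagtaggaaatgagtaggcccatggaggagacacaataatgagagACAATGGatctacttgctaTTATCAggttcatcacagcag
Foxa2 +6.2 kb, chr2:148040664-148040863: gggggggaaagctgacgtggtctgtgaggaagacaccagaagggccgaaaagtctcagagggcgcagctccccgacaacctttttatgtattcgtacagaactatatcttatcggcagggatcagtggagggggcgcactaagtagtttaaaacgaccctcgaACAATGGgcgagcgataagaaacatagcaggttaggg
Foxa2 +33.3 kb, chr2:148013607-148013806: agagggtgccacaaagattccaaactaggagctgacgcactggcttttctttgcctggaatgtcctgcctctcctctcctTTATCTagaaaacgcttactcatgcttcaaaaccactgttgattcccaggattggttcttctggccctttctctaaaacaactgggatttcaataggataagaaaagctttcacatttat
Foxa3 +3.9 kb, chr7:19019518-19019717: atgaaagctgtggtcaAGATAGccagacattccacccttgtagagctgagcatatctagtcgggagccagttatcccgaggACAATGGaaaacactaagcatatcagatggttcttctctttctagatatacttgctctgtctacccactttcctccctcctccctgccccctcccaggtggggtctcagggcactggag
Hnf4a +19.4 kb, chr2:163526064-163526263: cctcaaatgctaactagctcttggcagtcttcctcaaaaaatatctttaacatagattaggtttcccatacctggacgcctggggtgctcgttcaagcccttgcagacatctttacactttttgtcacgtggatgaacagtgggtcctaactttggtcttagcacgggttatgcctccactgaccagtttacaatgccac
Foxa2 +41.9 kb, chr2:148004994-148005193: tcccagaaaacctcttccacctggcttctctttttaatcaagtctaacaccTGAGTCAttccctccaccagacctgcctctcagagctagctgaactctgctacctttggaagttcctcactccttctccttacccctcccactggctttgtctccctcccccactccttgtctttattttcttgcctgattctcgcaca
Foxa2 +39.2 kb, chr2:148007703-148007902: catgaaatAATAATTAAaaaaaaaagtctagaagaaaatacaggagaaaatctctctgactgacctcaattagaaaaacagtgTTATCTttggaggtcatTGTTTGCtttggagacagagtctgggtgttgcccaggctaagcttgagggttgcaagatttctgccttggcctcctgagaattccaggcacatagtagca
Foxa2 +22.7 kb, chr2:148024179-148024378: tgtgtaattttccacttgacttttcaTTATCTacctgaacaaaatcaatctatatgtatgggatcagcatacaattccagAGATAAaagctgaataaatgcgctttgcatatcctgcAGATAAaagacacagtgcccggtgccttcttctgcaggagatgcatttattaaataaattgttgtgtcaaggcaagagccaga
Hnf4a +35.1 kb, chr2:163541834-163542033: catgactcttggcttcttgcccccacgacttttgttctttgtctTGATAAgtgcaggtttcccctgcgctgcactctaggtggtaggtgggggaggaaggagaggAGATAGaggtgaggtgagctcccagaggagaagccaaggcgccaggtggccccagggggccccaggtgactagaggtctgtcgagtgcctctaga

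The 2 promoters of Hnf4a are shown because they opened at different times. The RefSeq promoter table (GRCm38.p6) gave the stretches before the starts of P2 and P1, and bases inside an annotated untranslated region were left out. Neither stretch holds a match to any of the words, so nothing is in capitals. Only exact words were sought, so a site that differs from them would not be marked. Over all 32817 promoters of that table, 26.6% held a GATA word and 11.9% a forkhead word.
Hnf4a P2, plus strand, chr2:163506607-163506807: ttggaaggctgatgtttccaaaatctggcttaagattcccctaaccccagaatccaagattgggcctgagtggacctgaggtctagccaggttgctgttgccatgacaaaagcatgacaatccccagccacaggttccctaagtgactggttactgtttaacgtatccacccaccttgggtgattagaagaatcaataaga
Hnf4a P1, plus strand, chr2:163546905-163547154: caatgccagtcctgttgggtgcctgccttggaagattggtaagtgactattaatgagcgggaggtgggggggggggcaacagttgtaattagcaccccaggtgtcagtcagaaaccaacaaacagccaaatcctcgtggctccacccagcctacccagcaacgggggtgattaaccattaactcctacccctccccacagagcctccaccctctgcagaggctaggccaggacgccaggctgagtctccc

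To ask when the loci opened, a region was called gained if it was covered in both libraries of a time point and in neither 0 h library, and lost in the reverse case. The members gained 3, 5, 8, 13, 16 and 15 of 42 regions at 2, 4, 8, 16, 24 and 48 h. As shares these were 7.14%, 11.9%, 19.0%, 31.0%, 38.1% and 35.7%, beside 8.64%, 10.1%, 11.1%, 13.3%, 11.6% and 14.5% of all regions. Up to 4 h the members' share was near the background, and from 16 h on it was above it. Lost members numbered 1, 3, 3, 2, 1 and 3 at the same times, with 6.25%, 7.37%, 9.99%, 9.71%, 13.2% and 16.6% of all regions lost. The 3 members lost at 48 h (7.14%) were a region each of Foxa1, Foxa2 and Hnf4a. An exact two-sided test of 2 libraries against 2 cannot go below p = 0.33, and none was made of these counts.

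**Figure D1:**
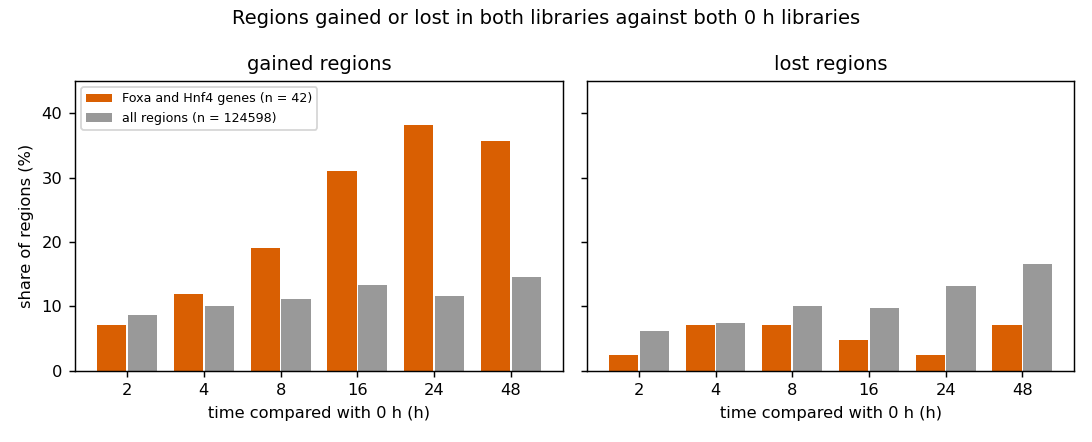
Share of regions (%) gained (left) or lost (right) in both libraries at each time point against both 0 h libraries, for the 42 regions of the Foxa and Hnf4 genes and for all 124598 regions. The members' gained share lies near that of all regions at 2 and 4 h and reaches 38.1% at 24 h.

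Within serum, at 48 h against 2 h, 15 members were gained and 2 lost, where 13.4% of all regions were gained and 17.0% lost. Hnf4a had 6 of these gains, Foxa2 6, Foxa3 2 and Hnf4g 1. The losses were a Foxa1 and a Foxa2 region. A further 6 members (14.3%) were open only in between, in both libraries of an intermediate time point and in no library of 0 or 48 h, close to the 13.9% of all regions. Of these, Foxa2 +33.8 kb joined a region open at 48 h when peaks within 100 bp were merged. Members called in all 14 libraries numbered 3, beside 15.1% of all regions.

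Whether calls gathered at late or early times was asked for each region, by permuting the time labels exactly (two-sided) and summing the ranks of the times at which it was called. Benjamini-Hochberg adjustment ran over all 79559 regions called in 2 to 12 libraries. Of these, 12.1% rose and 12.3% fell at an adjusted p under 0.05. Of 30 members that could be tested, 9 rose (30.0%) and 1 fell (3.33%). The risers were 5 Foxa2, 3 Hnf4a and 1 Foxa3 regions, each with an adjusted p of 0.013, the smallest value reached by any region in this exact permutation test. Regions open in both libraries of only 1 time point, or of all but 1, cannot pass, since their smallest adjusted p was 0.0541.

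**Figure D2:**
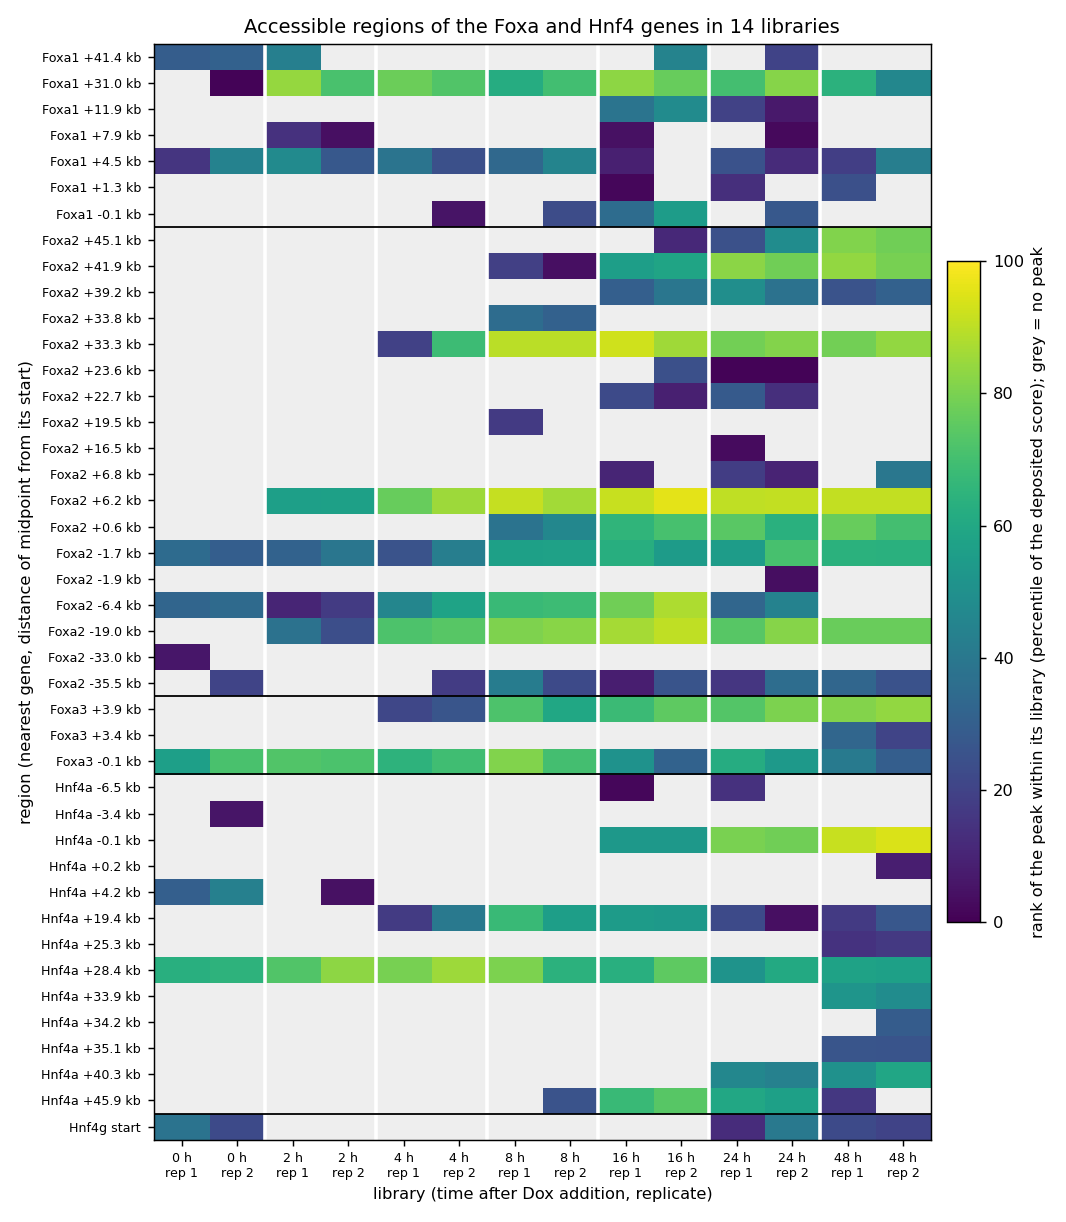
Each row is a region of a Foxa or Hnf4 gene and each column a library; colour gives the rank of the region's highest peak within that library's list as a percentile of the deposited score, and grey marks no peak. Foxa2 and Hnf4a rows fill in from left to right, while Foxa1 rows are scattered and Foxa3 -0.1 kb, Foxa2 -1.7 kb and Hnf4a +28.4 kb are filled in all 14 libraries.

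The order of opening differed among the genes. Of the 7 Foxa2 regions gained at 48 h, 2 were first called in both libraries after 2 h, a further 1 after 4 h, 2 more after 8 h, then 1 after 16 h and 1 after 24 h, and none waited until 48 h. Of the 6 Hnf4a regions, 1 opened after 4 h, another 1 after 16 h, another 1 after 24 h and the other 3 after 48 h. The 2 Foxa3 regions were first called at 4 and 48 h. Foxa1 and Hnf4g had no region gained at 48 h against 0 h, but the Foxa1 count was 1 with the 50000 highest peaks, with 50% of a region covered and with calls in at least 1 library, and 2 without replicate 2. At 8 h, 71.4% of the gained Foxa2 regions were open in each library and 16.7% of the gained Hnf4a regions, with 36.6% ± 0.117 (SD, n = 2 libraries) of all gained regions. At 24 h all of the Foxa2 regions were open in both libraries, against 50.0% of the Hnf4a regions and 63.0% ± 1.24 of all gained regions. The difference between Foxa2 and Hnf4a rests on 7 and 6 regions of shared libraries and was not tested. The times of opening depend on the calling rule. With the 50000 highest peaks, 20 of 42 members kept their calls at all times, and 33 of 42 with 50% of a region covered. Foxa2 +41.9 kb was called in both libraries only from 16 h in the first setting. Hnf4a +19.4 kb was so only from 8 h in the second. Of all gained regions, 37.4% were first called in both libraries at 48 h, beside 26.7% (4 of 15) of the members.

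**Figure D3:**
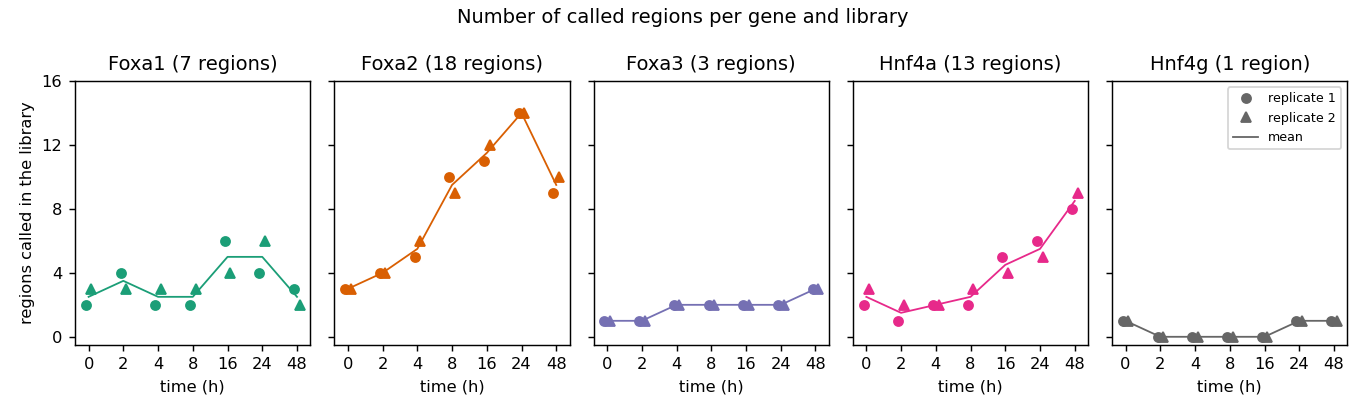
Number of regions called in each library for each gene against time (h, evenly spaced categories); circles and triangles are the 2 libraries and the line is their mean. Foxa2 reaches 14 regions in both 24 h libraries, Hnf4a reaches 8 and 9 at 48 h, and Foxa1 stays between 2 and 6.

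Foxa2 (chr2:148042877-148046969, minus strand) had the most regions, and 7 of 18 (38.9%) were gained at 48 h, a lower share than the 46.2% of Hnf4a (6 of 13). These counts depend on the distance limit. Within 20 kb, Foxa2 had 3 gained regions and Hnf4a 2, and within 100 kb they had 13 and 6. Its 18 regions were called 3 and 3 times in the libraries of 0 h, 4 and 4 at 2 h, 5 and 6 at 4 h, 10 and 9 at 8 h, 11 and 12 at 16 h, 14 and 14 at 24 h, and 9 and 10 at 48 h. The libraries of 8 h and later all lay above those of 0 to 4 h, and the 48 h count was below that of 24 h. How many other genes show this split was not counted, and 4930578I06Rik followed a like course (Pearson's r = 0.961). In all, 5 of its regions rose, none fell (1 had an unadjusted p under 0.05 in the falling direction by the exact permutation test).

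The earliest Foxa2 regions lay on either side of the gene. Region +6.2 kb (chr2:148040419-148041107, intergenic) was absent at 0 h and present in all 12 later libraries. Its score percentile, the rank of its highest peak within the library's own list, was 56.6 and 56.9 at 2 h, 76.9 and 85.2 at 4 h, 91.3 and 86.2 at 8 h, and 90.9 and 91.0 at 48 h. It ranked in the middle of the list at 2 h and near the top from 8 h on. The region ends 216 bp from the start of 9030622O22Rik, a long intergenic non-coding RNA gene (chr2:147944740-148040203) on the same strand as Foxa2. Region +6.8 kb, which spans that start, was called in 1 of 2 libraries at 16 h, 2 at 24 h and 1 at 48 h (adjusted p = 0.0646, exact permutation test).

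Region -19.0 kb (chr2:148065461-148066415, intergenic), whose window above holds 2 GATA words and a SOX word, followed the same course. It was absent at 0 h and had percentiles of 37.8 and 24.1 at 2 h, 72.2 and 73.9 at 4 h, 86.6 and 90.6 at 16 h, and 77.2 and 77.0 at 48 h. Both regions had an adjusted p of 0.0541 in the exact permutation test, the limit for regions present at all times but 1. Because they were called at 2 h, they are not among the members gained at 48 h against 2 h.

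The region over the Foxa2 start (+0.6 kb, chr2:148045809-148047006, exons with untranslated sequence) opened later. It was absent in all 6 libraries of 0, 2 and 4 h and present in all 8 later ones (adjusted p = 0.013, exact permutation test). Its percentile was 38.2 and 46.3 at 8 h, 65.3 and 71.0 at 16 h, 74.6 and 63.4 at 24 h, and 76.8 and 70.1 at 48 h. The part of the region under a peak grew from 21.0% and 26.0% at 8 h to 64.0% and 63.5% at 16 h and 96.9% and 95.7% at 24 h, and was 68.5% and 91.4% at 48 h. The region covers 3 annotated protein-coding starts of Foxa2. Where coverage of at least 50% of a region was required for a call, the start was first called at 16 h.

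The other Foxa2 risers lay 33.3 to 45.1 kb downstream, in introns of 9030622O22Rik, which holds 10 of the 18 Foxa2 regions and 4 of its 5 risers. They opened in sequence, with region +33.3 kb in both libraries from 4 h, region +41.9 kb from 8 h, region +39.2 kb from 16 h and region +45.1 kb from 24 h. At 48 h their percentiles were 78.9 and 83.7, 83.8 and 79.3, 25.6 and 31.1, and 81.2 and 78.5. Region +39.2 kb (chr2:148007653-148007952), whose window holds an HNF1, a GATA and a forkhead word, thus stayed low in the lists while the others were high. Region +33.3 kb (chr2:148013399-148014014) already ranked at 89.7 and 89.8 at 8 h. Without the 0 h libraries, it lost its call (adjusted p = 0.0622, exact permutation test) and the other 4 Foxa2 risers kept theirs at 0.0254.

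**Figure D4:**
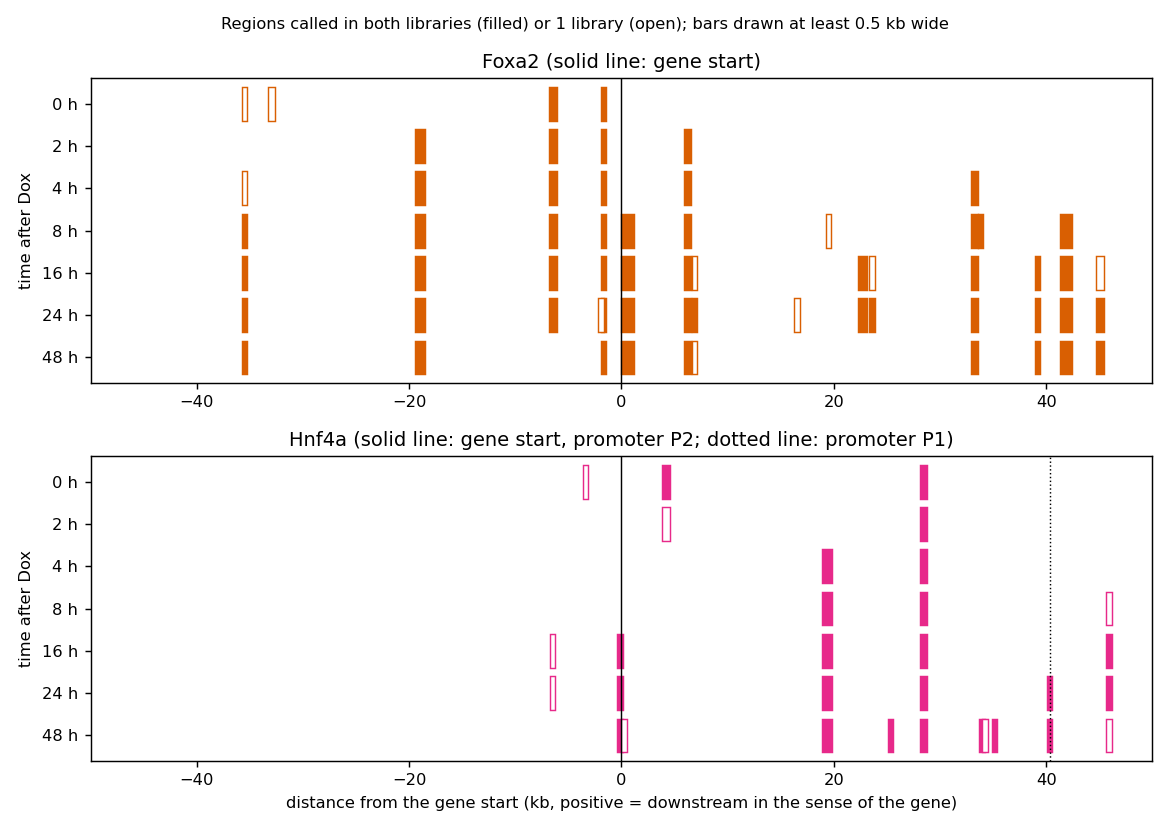
Regions around Foxa2 (top) and Hnf4a (bottom) by distance from the gene start (kb), with a row per time point; filled bars were called in both libraries and open bars in 1, and bars are at least 0.5 kb wide. Foxa2 bars appear at -19.0 and +6.2 kb from 2 h and at the start from 8 h, whereas the P2 start of Hnf4a opens at 16 h and P1 at 24 h.

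A further 3 Foxa2 regions were open only in between. Region +33.8 kb (chr2:148013006-148013383) was called in both 8 h libraries (percentiles 35.2 and 31.1) and nowhere else. It ends just before the early riser at +33.3 kb, which begins at chr2:148013399. With peaks within 100 bp merged, the 2 form 1 region that stayed open to 48 h, so it is not a separate region under that rule. Region +22.7 kb (chr2:148023876-148024680), with 3 GATA words in its window, was called in both libraries of 16 h (22.5 and 8.75) and 24 h (28.3 and 13.5). Region +23.6 kb was called in 1 library of 16 h and both of 24 h, where it lay at the bottom of the lists (0.784 and 0.967). All 3 ranked low, and none had an unadjusted p under 0.05.

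Foxa2 also had regions that were open from the outset. Region -1.7 kb (chr2:148048539-148048769, intergenic) was called in all 14 libraries, and its percentile went from 35.0 and 30.0 at 0 h to 63.8 and 63.4 at 48 h. Region -6.4 kb (chr2:148053019-148053770), which overlaps the microRNA gene Gm27420, was present from 0 to 24 h and absent in both 48 h libraries. Its percentile was 32.7 and 34.7 at 0 h, 10.3 and 17.2 at 2 h, 78.5 and 87.8 at 16 h, and 32.9 and 44.4 at 24 h. It was thus highest in the lists at 16 h before it was lost (adjusted p = 0.0541, exact permutation test). Region -35.5 kb was called in 1 library of 0 h, in neither of 2 h, in 1 of 4 h and in both from 8 h on (adjusted p = 0.0646, exact permutation test). Of the remaining 4 regions, +19.5 kb, +16.5 kb, -1.9 kb and -33.0 kb, each was called in 1 library.

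Hnf4a (chr2:163506808-163572910, plus strand) opened later than Foxa2 and was still adding regions at 48 h. Its 13 regions were called 2 and 3 times at 0 h, 1 and 2 at 2 h, 2 and 2 at 4 h, 2 and 3 at 8 h, 5 and 4 at 16 h, 6 and 5 at 24 h, and 8 and 9 at 48 h. The libraries of 16, 24 and 48 h had higher counts than those of 0 to 8 h. The share of other genes with such a separation was not counted, and Bmp2 followed a like course (Pearson's r = 0.965). In all, 3 regions rose, 1 fell, and 6 were gained at 48 h.

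The P2 start lay in region -0.1 kb (chr2:163506412-163506930), which was absent in all 8 libraries up to 8 h and present in all 6 later ones (adjusted p = 0.013, exact permutation test). Its percentile climbed from 53.5 and 53.4 at 16 h to 79.8 and 78.3 at 24 h and 91.6 and 94.4 at 48 h, the highest 48 h mean of any member (93.0 ± 1.96, SD, n = 2). The P1 starts, 40.4 kb downstream, lay in region +40.3 kb (chr2:163546974-163547242), which opened only at 24 h. It was absent in all 10 libraries up to 16 h and had percentiles of 46.1 and 43.9 at 24 h and 50.6 and 59.0 at 48 h (adjusted p = 0.013, exact permutation test). P2 ranked above P1 in each of the 4 libraries that called both.

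The earliest Hnf4a region was intronic. Region +19.4 kb (chr2:163525732-163526595) was absent at 0 and 2 h and present from 4 h on (adjusted p = 0.013, exact permutation test). It did not keep its rank, since its percentile was 17.2 and 40.3 at 4 h, 67.6 and 56.0 at 8 h, 55.0 and 53.6 at 16 h, 22.5 and 4.1 at 24 h, and 16.8 and 27.3 at 48 h. Its highest ranks came at 8 and 16 h. Without the 0 h libraries the trend was not called (adjusted p = 0.0622, exact permutation test).

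At 48 h, both libraries gained 3 further intronic regions, at +25.3, +33.9 and +35.1 kb. Region +33.9 kb (chr2:163540607-163540898) ranked at 52.2 and 48.8, region +35.1 kb (chr2:163541721-163542145) at 26.5 and 26.0, and region +25.3 kb at 14.6 and 16.6. Region +35.1 kb, with 2 GATA words in its window, begins 1 bp from the start of Hnf4aos, the antisense RNA gene that overlaps 10 of the 13 Hnf4a regions. Each had an adjusted p of 0.0541, the limit for regions open at 1 time point in this exact permutation test. Regions +34.2 and +0.2 kb were called in 1 of the 48 h libraries and nowhere else.

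Region +45.9 kb of Hnf4a (chr2:163552432-163553011, overlapping an exon) peaked before 48 h. It was called in 1 library of 8 h (25.6), both of 16 h (67.8 and 74.0), both of 24 h (60.0 and 57.0) and 1 of 48 h (16.2), with an adjusted p of 0.0546 in the exact permutation test. The falling member was region +4.2 kb (chr2:163510645-163511379, intron), called in both 0 h libraries (30.3 and 43.6), in 1 library of 2 h (4.55) and in none of the other 11 (adjusted p = 0.0451, exact permutation test). This call was lost with 50% coverage and with a replicate block (adjusted p = 0.0555, exact permutation test), and the region could not be tested without the 0 h libraries. Region +28.4 kb (chr2:163534892-163535561, intron) was open in all 14 libraries, with percentiles of 63.0 and 64.5 at 0 h, 79.6 and 85.2 at 4 h, and 57.7 and 56.8 at 48 h. With at least 50% covered it was missed in 1 library each of 4, 24 and 48 h. Of the remaining regions, -6.5 kb was called in 1 library each of 16 and 24 h and -3.4 kb in 1 library of 0 h.

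**Figure D5:**
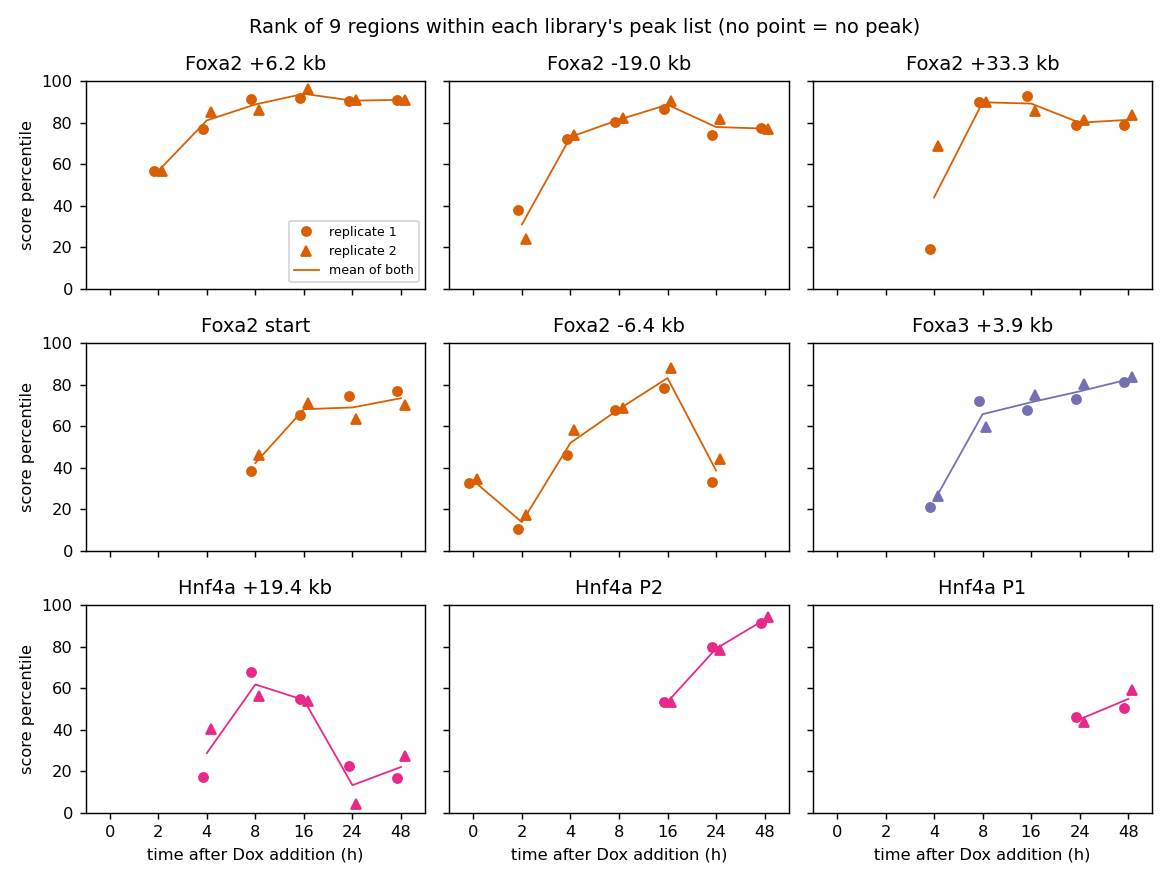
Score percentile within each library's peak list against time (h, evenly spaced categories) for 9 regions; circles and triangles are the 2 libraries, the line joins means where both called the region, and no point means no peak. Foxa2 +6.2 kb and -19.0 kb rise from 2 h, the Foxa2 start from 8 h and Hnf4a P2 from 16 h, while Foxa2 -6.4 kb and Hnf4a +19.4 kb peak and then decline.

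Foxa3 (chr7:19013284-19023538, minus strand) had a peak at its start in every library. The region over the start (-0.1 kb, chr7:19023260-19024030) was called in all 14 libraries, with percentiles of 56.4 and 71.4 at 0 h, 80.9 and 70.0 at 8 h, and 40.8 and 29.9 at 48 h. The part under a peak was 99.9% and 98.8% at 0 h and 19.6% and 58.9% at 48 h, and with at least 50% covered for a call the region was missed in 1 library each of 4, 16, 24 and 48 h. Intronic region +3.9 kb (chr7:19019348-19019886), whose window holds a GATA and a SOX word, was absent at 0 and 2 h and present from 4 h on (adjusted p = 0.013, exact permutation test). Its percentile rose from 21.3 and 26.5 at 4 h to 72.1 and 59.4 at 8 h and 81.3 and 83.7 at 48 h. At 48 h the intronic region thus ranked above the start in both libraries, the reverse of 4 h. Without the 0 h libraries the trend of +3.9 kb was not called (adjusted p = 0.0622, exact permutation test). Its neighbour +3.4 kb was called in both 48 h libraries (33.2 and 20.7) and nowhere else.

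Foxa1 (chr12:57540628-57546916, minus strand) had no riser. Its 7 regions were called 2 and 3 times at 0 h, 4 and 3 at 2 h, 2 and 3 at 4 h, 2 and 3 at 8 h, 6 and 4 at 16 h, 4 and 6 at 24 h, and 3 and 2 at 48 h. None of the 5 that were tested had a p under 0.05 in the exact permutation test, before or after adjustment. Region +31.0 kb (chr12:57515381-57516365, intergenic) was called in all 12 libraries after 0 h, with percentiles of 84.1 and 71.4 at 2 h and 64.1 and 46.1 at 48 h. At 0 h it was called in 1 library, at the bottom of the list (0.975) and over 19.6% of the region. With the 50000 highest peaks or 50% coverage this call was gone and the region counted as gained from 2 h on. Exonic region +4.5 kb (chr12:57542330-57542571) was called in 13 libraries, all but 1 of 16 h.

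The region over the annotated Foxa1 start (-0.1 kb, chr12:57546823-57547222) was called in 1 library each of 4, 8 and 24 h and in both of 16 h (35.2 and 55.2), and in none of 0, 2 and 48 h. It covers the start of a processed transcript, while the start of the protein-coding transcript lies 0.8 kb downstream and in no region. Regions +11.9 kb (both libraries of 16 and 24 h) and +7.9 kb (both of 2 h, 1 each of 16 and 24 h) were also closed at 0 and 48 h. Region +41.4 kb was called in both 0 h libraries and neither 48 h library, with 1 library each of 2, 16 and 24 h in between. Region +1.3 kb was called in 1 library each of 16, 24 and 48 h.

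Hnf4g (chr3:3508030-3658052, plus strand) had only the region over its start (chr3:3507618-3508415). It was called in both libraries of 0 h (38.1 and 22.4), 24 h (12.8 and 40.3) and 48 h (22.5 and 20.1) and in none of the 8 libraries of 2 to 16 h. The part under a peak was 58.0% in the library numbered 1 and the whole region in the other at 0 h and 29.4% and 21.2% at 48 h. The trend over all libraries was not called (adjusted p = 0.498, exact permutation test), whereas over the 12 serum libraries it rose (adjusted p = 0.0254). With at least 50% of the region covered for a call, it was called at 0 h alone, and neither its return at 24 and 48 h nor the rise in serum was left.

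Of the 6 regions within 1 kb of a gene start, those of Foxa2 and Hnf4a P2 rose, and those of Foxa1, Foxa3 and Hnf4g and the minor Hnf4a region +0.2 kb did not pass the test or could not be tested. Such regions made up 14.3% of the members and 13.1% of all regions. The median percentile of the members gained at 48 h was 76.8 and 70.1 in the 2 libraries of 48 h. It was 45.7 and 47.4 for all gained regions. The high ranks were mainly those of Foxa2, whose gained regions except +39.2 kb (25.6 and 31.1) lay at 70.1 or above in both libraries. Hnf4a P2 (91.6 and 94.4) and Foxa3 +3.9 kb (81.3 and 83.7) also ranked high. The other gained Hnf4a regions lay between 14.6 and 59.0, and Foxa3 +3.4 kb at 33.2 and 20.7. The 5 members shared by 0 and 48 h had medians of 40.8 and 42.9, beside 70.5 and 72.5 for all shared regions.

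GATA words were about as common at these genes as elsewhere. In the central 200 bp, 14 of 42 members held a GATA word (33.3%, against 35.5% of all regions). Of the members gained at 48 h, 7 of 15 held one (46.7%, against 57.9% of all gained regions), and over the whole region 12 of 15 did (80.0%, against 74.5%). All 7 gained Foxa2 regions held a GATA word somewhere in the region, and 4 held it in the central window. A forkhead word lay in the central window of 8 members (19.0%, against 11.0%), 2 of them gained (13.3% of the gained members, against 16.5% of all gained regions). A SOX word lay in the central window of 4 members (9.52%, against 8.01%), all of them gained (26.7%, against 12.7% of all gained regions). Over the whole region, 8 members held a SOX word (19.0%, against 15.5%), and 5 of these were gained (33.3%, against 22.1%). A forkhead word lay in 12 whole regions (28.6%, against 24.1%). An HNF4, an HNF1 and an AP-1 word (TGACTCA or TGAGTCA) lay in the central window of 1 member each (2.38%), against 0.828%, 0.835% and 9.21% of all regions. These shares describe few regions that share genes, and no test was made.

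The related gene lists put these loci in context. Near 18 partner endoderm factors, 43 of 169 regions were gained at 48 h (25.4%) and 29 lost (17.2%), and of 115 tested, 26 rose and 15 fell. Of these genes, Tbx3, a T-box factor, had 7 of 25 regions gained and 6 lost, with 6 risers and 4 fallers. Near 22 known FOXA and HNF4A target genes, such as apolipoprotein and gluconeogenic genes, 16 of 54 regions were gained (29.6%) and 3 lost (5.56%), and of 38 tested, 5 rose and none fell (17 and 2 at an unadjusted p under 0.05, exact permutation test). The risers were near Apoa1, Apoa4, Pck1, Tat and Amn, 1 each. At the other forkhead genes 35 of 224 regions were gained (15.6%) and 41 lost (18.3%), with 22 risers and 13 fallers of 157 tested. Of the forkhead genes, 11 had a riser and 8 a faller. Foxp4 had the most risers, 5 with no faller. Foxd3, a factor of pluripotent cells, had the most fallers, 5 with no riser (6 and 0 at an unadjusted p under 0.05, exact permutation test). At the other NR2 receptor genes 3 of 66 regions were gained (4.55%) and 10 lost (15.2%), with 1 riser and 5 fallers of 41 tested. The forkhead and NR2 relatives were thus near or below the 14.5% gained over all regions. Risers made up 15.4%, 9.26%, 9.82% and 1.52% of the regions in these 4 lists, beside 7.71% of all regions. Fallers made up 8.88%, 0%, 5.8% and 7.58%, beside 7.84%. The share of risers near the target genes was thus close to that of all regions. Over all 79559 tested regions, 18184 and 18883 had an unadjusted p under 0.05 in the rising and falling direction (exact permutation test).

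The number of called regions per library was also compared with that of 9130 genes with at least 4 regions, as a description over 14 libraries that share depth and time. Foxa2 was most like 4930578I06Rik (Pearson's r = 0.961), Rnf152 (0.957) and Creb3l1 (0.951). Hnf4a was most like Bmp2 (0.965), which encodes a bone morphogenetic protein, Atpif1 (0.964) and 1700016D06Rik (0.963). The closest match of Foxa1 was weaker (Tns3, 0.878).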

How the data were processed

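ATAC-seq was measured in 14 libraries, 2 per time point. The authors made 1 peak list per library with the ENCODE ATAC-seq pipeline, and per the file names peaks passed an irreproducible discovery rate of 0.05 between pseudoreplicates of that library and a blacklist filter. Per the labels the build is GRCm38 (mm10), and 0 of 839049 peaks ended past a GRCm38 chromosome. The deposited lists give 1 unnamed score per peak and no read counts, so depth is unknown, and a region without a peak may be open below a library's calling threshold. The score was used only to rank peaks within a list. The members and gene lists were chosen with earlier results of these data known.

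Peaks were merged, annotated with GENCODE M21 and tested as described in the results, with Python 3.11.15, numpy 2.4.6, pandas 2.3.3 and scipy 1.17.1. The trend test was tested on simulated data. Regions were described individually if within 1 kb of a start, among up to 4 risers or 2 fallers per gene, or open only in between (up to 2 per gene), and the remaining regions were named to account for every member, after their values were seen. Motif words were sought in the central 200 bp. Alternatives covered the 50000 highest peaks, 50% coverage, merging within 100 bp, limits of 20 and 100 kb, starts of all transcripts, calls in at least 1 library, a replicate block, and leaving out the 0 h libraries or a replicate. The difference between the 2 libraries of a time point was uncorrelated among time points (correlations of -0.0152 to 0.0124 over 21 pairs). The main test therefore used no block. This check cannot see an offset shared by all regions, and the library numbered 2 had more peaks at 7 of 7 time points. Whether same-numbered libraries were handled together is thus not known. P-values of the permutation test measure how a region's calls are ordered in time, with all 14 libraries treated as exchangeable. They use no estimate of the spread between the libraries of a time point, which may be technical. If those libraries were not separate cultures, they would not be independent units.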

Additional observations from a re-analysis of the deposited data

How the results depend on the processing

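Merging peaks within 100 bp and using the starts of all protein-coding transcripts kept every member count within 1.5 times its value. Merging within 100 bp left 38 members, with 7 gained at 8 h. With the 50000 highest peaks per library, 16 members rose (15956 of all regions, beside 9609), 3 were lost at 2 h and 0 were lost at 48 h against 2 h. With 50% of a region covered, 0 fell, 2 were lost at 2 h, 2 at 24 h and 1 at 48 h against 2 h, and 14 of the 15 members gained at 48 h were still gained. The distance limit set the number of members, 24 within 20 kb and 60 within 100 kb. Within 20 kb, 4 rose, 5, 8, 8 and 7 were gained at 8, 16, 24 and 48 h, and 6 were gained at 48 h against 2 h. Within 100 kb, 15 rose, 3 fell, 24 were gained at 16 h, 2, 5, 3 and 5 were lost at 2, 8, 24 and 48 h, and 4 were lost at 48 h against 2 h. With calls in at least 1 library, 4, 5, 5, 4, 3 and 5 were lost at the 6 times and 4 at 48 h against 2 h.

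Leaving out a replicate left 7 libraries, for which the smallest exact two-sided permutation p is 0.0571, so that 0 rose and 0 fell by construction of the test. Losses were then 3 to 4 at 2 h, 4 in either case at 16 h and 2 to 3 at 24 h, and gains at 48 h were 18 to 19. With a replicate block in the permutations, 9 members rose and 0 fell, since Hnf4a +4.2 kb had an adjusted p of 0.0555 (7548 rose among all regions). No other member call changed under the block. Without the 0 h libraries 7 rose, 6 of them among the 9 and the other over the Hnf4g start, and 0 fell because Hnf4a +4.2 kb could not be tested. The share of members with a GATA word was 59.5% over the whole region and 33.3% in the central window. Without read counts, a change in the degree of openness of a region called throughout could not be measured.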
